A study of Salmo salar with 34 samples.

Results

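The 150 probes with the brightest signal in the midgut of Atlantic salmon (Salmo salar) post-smolts are described here, 150 of 14841 salmon probes on a DNA oligonucleotide array. They were chosen by level alone. A probe had to be well above background on all 34 arrays, which 7597 probes were, and to rank among the 150 highest by mean level over those arrays. Level here is the log2 of the scanner's processed signal minus that array's 75th percentile, so that a level of 0 lies at the 75th percentile of the array and 1 unit is a doubling. The rule therefore used the levels themselves, and the levels are given as a description. It did not use the diet or the sex, and tests were made on those. The spread between fish was not ranked on and is described without a test. The demand for signal on all 34 arrays leaves out probes that drop to background in any fish, and so limits the spread. The mean level of the members ran between 9.29 and 5.84, with the last members inside the limit at 5.86, 5.86 and 5.84 and the first probes outside it at 5.84, 5.82 and 5.80. The step at the limit was small, and the 150 are a slice of a continuous ranking rather than a separate class. The signal of a probe also depends on its own sequence and hybridisation, so the order of the members is an order of signal and not of transcript copies.

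The fish had been fed for 12 weeks on diets supplemented with copper, iron, manganese, selenium and zinc, and midgut RNA of 1 fish was hybridised per array. The high inorganic mineral group (high IM) had 6 fish, 2 males and 4 females, and the low inorganic mineral group (low IM) had 8 fish, 3 males and 5 females. The high organic mineral group (high OM) had 9 fish, 6 males and 3 females, and the low organic mineral group (low OM) had 11 fish, 5 males and 6 females. The inorganic source was sulphates of copper, iron, zinc and manganese, with selenium listed as sodium selenite in the diet formulations. The organic source was Bioplex minerals with selenium as Selplex. All groups were kept in sea water under continuous light and went through a period of handling stress and a reduced oxygen supply towards the end of the trial. The trial had 4 mineral levels per source, and the labels call the groups high and low without saying which of the 4 levels these were, so the difference in dose behind each comparison is not known here. Each diet was fed in 3 tanks of its own. The labels do not give the tank, so fish of 1 tank entered the tests as separate fish and p-values may be too small for that reason.

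The midgut epithelium absorbs nutrients and trace metals and is renewed throughout life. In vertebrate intestine in general, the most abundant messages tend to come from the translation machinery, the mitochondrial respiratory chain and the proteins that bind and carry lipids and other nutrients. Copper, zinc, manganese, iron and selenium act as cofactors or building blocks of enzymes, among them several that remove reactive oxygen species. The files name each probe by an identifier only, and 0 of 14841 identifiers matched the RefSeq gene table at hand, so no gene name, role or sequence is given for any member, and the tissue could not be checked against marker genes. Of the members, 145 carried the prefix Ssa and 5 the prefix Omy, against 13549 and 1292 of all probes. As shares, Omy made up 3.33% of the members and 8.71% of all probes.

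The brightest member, Ssa#EL698819, had a mean level of 9.29 and a raw processed signal between 76331 and 307112 intensity units over the arrays. It ranked between 1 and 5 on every array. In the diet groups Ssa#EL698819 had a lowest, median and highest level of 8.37, 9.16 and 9.80 in high IM, 8.01, 9.16 and 10.06 in low IM, 8.68, 9.69 and 10.56 in high OM, and 8.47, 9.25 and 9.89 in low OM. The 4 groups overlapped widely. The next members were Ssa#GRASP209154277 with a mean level of 8.94, Ssa#S47729160 with 8.81, Ssa#S35579391 with 8.81 and Ssa#TC111085 with 8.78. The worst rank of these 4 on any array was 13, 18, 13 and 11 in the order given. The top of the list was thus shared by all fish, although the exact order changed between arrays. No member spot was saturated, and the brightest spot read 328425 intensity units.

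The 150 members, 1.01% of the probes, carried between 38.6% and 54.1% of the summed signal of an array, with a median of 49.0% over the 34 arrays. Of the members, 68 were among the 150 brightest of the 7597 on every array, and the member present there least often was so on 13 arrays. On a single array, 124 to 141 of the members (median 134) were among that array's own 150 brightest. Rank correlation of the members between pairs of arrays ran between 0.45 and 0.99 with a median of 0.78 over 561 pairs, a description with no test, since all arrays share the same probes. The list was nearly the same under other processing. It held 149 of the 150 after normexp background correction, 150 after quantile normalization, 149 with the authors' processed values and 147 when ranked by the median.

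**Figure D1:**
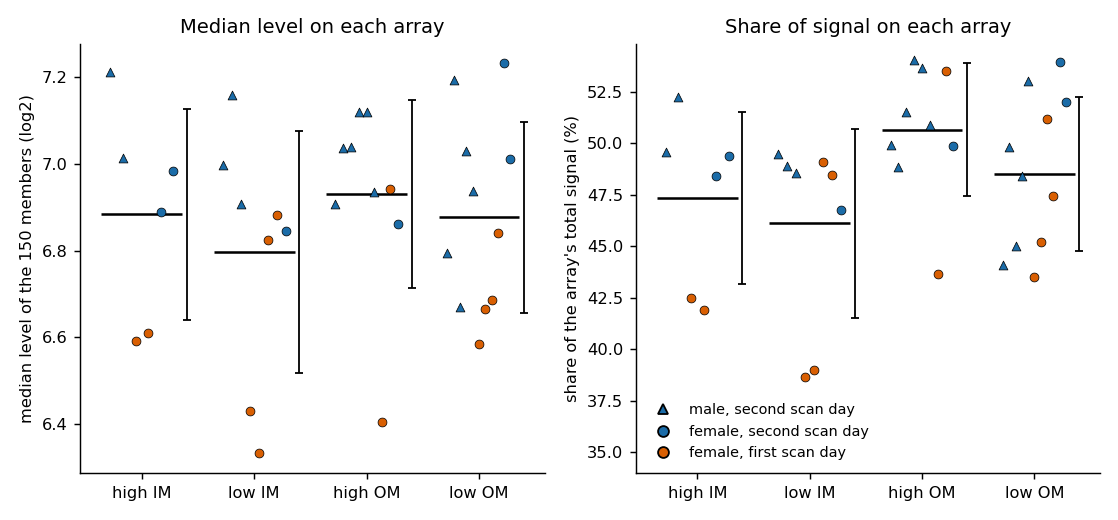
Median level of the 150 members (left, log2 relative to the array's 75th percentile) and their share of the summed signal (right, %) on each of 34 arrays by diet group. Triangles are males and circles females, orange marks the first and blue the second scan day, and black lines are group means with SD. Most orange points lie low, with first-day medians of 6.33 to 6.94 against 6.67 to 7.23 for all second-day arrays.

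The median level of the members on an array ranged from 6.33 to 7.23. By diet, the lowest, median and highest array were 6.59, 6.94 and 7.21 in high IM, 6.33, 6.86 and 7.16 in low IM, 6.40, 6.94 and 7.12 in high OM, and 6.59, 6.84 and 7.23 in low OM. The groups overlapped over most of their range. The arrays had been scanned on 2 days, and the 12 arrays of the first day all came from females, spread over the 4 diets, while the second day held 16 males and 6 females. The members' median was 6.85 to 7.23 (median 6.94) in second-day females and 6.33 to 6.94 (median 6.64) in first-day females. Males, all second-day, had 6.67 to 7.21 (median 7.02). The share of signal moved likewise, being 46.8% to 53.9% in second-day females and 38.6% to 53.5% in first-day females. The arrays lay on 7 slides, 5 of which held a single sex. Array brightness differed more than this, with the 75th percentile between 87.9 and 863 intensity units.

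Between fish of the same diet group, the members varied less than most of the array. The within-group SD of the members had a median of 0.43 log2 units, a 1.35-fold spread, with an interquartile range of 0.33 to 0.56. Over all 12885 probes tested, the median SD was 0.63. Those probes had to be well above background on only 6 or more arrays, so the rule itself favours a lower spread in the members. Dim probes scattered more. When the 7597 probes well above background on all arrays were split by mean level into 10 bins of equal number, the median SD was 0.56 in the lowest bin and 0.39 in the highest. The members, at 0.43, lay close to the 7447 other probes of this kind, at 0.46. They lay above the 0.39 of the highest bin, of which they are part. An SD above 1 was found for 3 members (2%), 475 of those other probes (6.38%) and 2735 of all probes tested (21.2%). Over all 34 fish, the range of a typical member was 1.83 log2 units, or 3.56-fold. Within single groups the median SD of the members was 0.38 in high IM, 0.44 in low IM, 0.37 in high OM and 0.44 in low OM, against 0.48, 0.53, 0.52 and 0.69 over all probes tested. With the scan day added to the fit, the members' median SD was 0.33 and that of all probes tested 0.59.

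**Figure D2:**
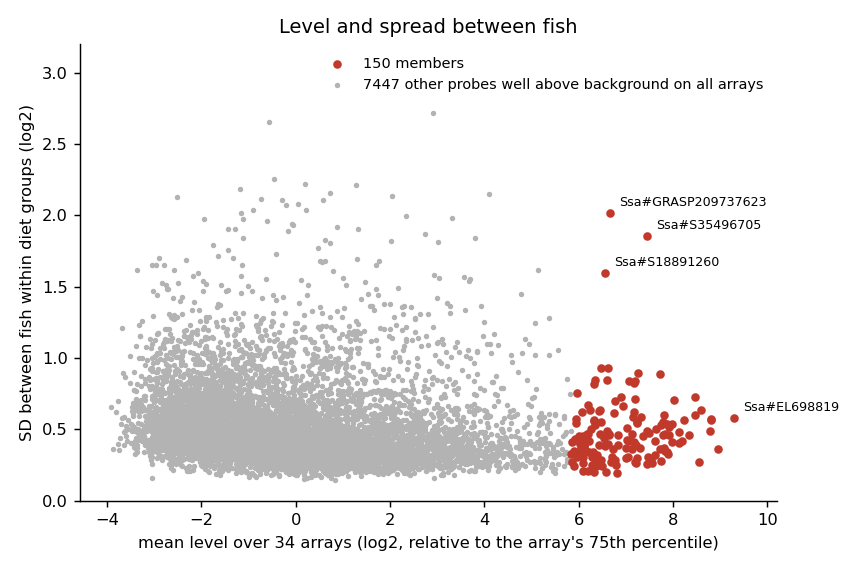
Mean level over 34 arrays (x axis, log2) against the SD between fish within diet groups (y axis, log2) for the 150 members in red and 7447 other probes in grey. All but 3 members lie below an SD of 1, and those 3 and the brightest member are named.

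The steadiest member was Ssa#S47727669, with a within-group SD of 0.20 over the 28 spots without an outlier flag. Its level was 6.65 to 6.96 in high IM, 6.68 to 7.13 in low IM, 6.53 to 6.78 in high OM and 6.46 to 7.38 in low OM. Ssa#GRASP209731203 and Ssa#GRASP209154919 followed with SDs of 0.20 each. Ssa#GRASP209731203 stayed between 6.09 and 7.00 over all 34 fish, and Ssa#GRASP209154919 between 5.81 and 6.75. For both, the lowest fish was high OM female 3, whose members' median was also low, at 6.40.

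The highest spread, in contrast, came from a single array. Ssa#GRASP209737623, Ssa#S35496705 and Ssa#S18891260 had within-group SDs of 2.02, 1.85 and 1.60. On the array of high OM female 4 their processed signals were 7.46, 17.9 and 33.6 intensity units, yet still flagged well above background. On the 33 other arrays the lowest signals were 6594, 13848 and 6195 units. On the log2 scale these 3 members stood 10.67, 10.03 and 8.23 units below their medians over the other arrays, or 1627-fold, 1045-fold and 300-fold. Over the other 33 arrays their SDs were 0.59, 0.57 and 0.52. They also moved together there, with pairwise correlations of 0.63 to 0.77 given as a description. The same array held 14 of the 7597 probes more than 5 log2 units below their medians, 3 of them members, and the next array held 6. It also held 11 members more than 1 log2 unit above their medians, and it had one of the lowest 75th percentiles, at 90.4 intensity units. The part of the array in these values was not tested.

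**Figure D3:**
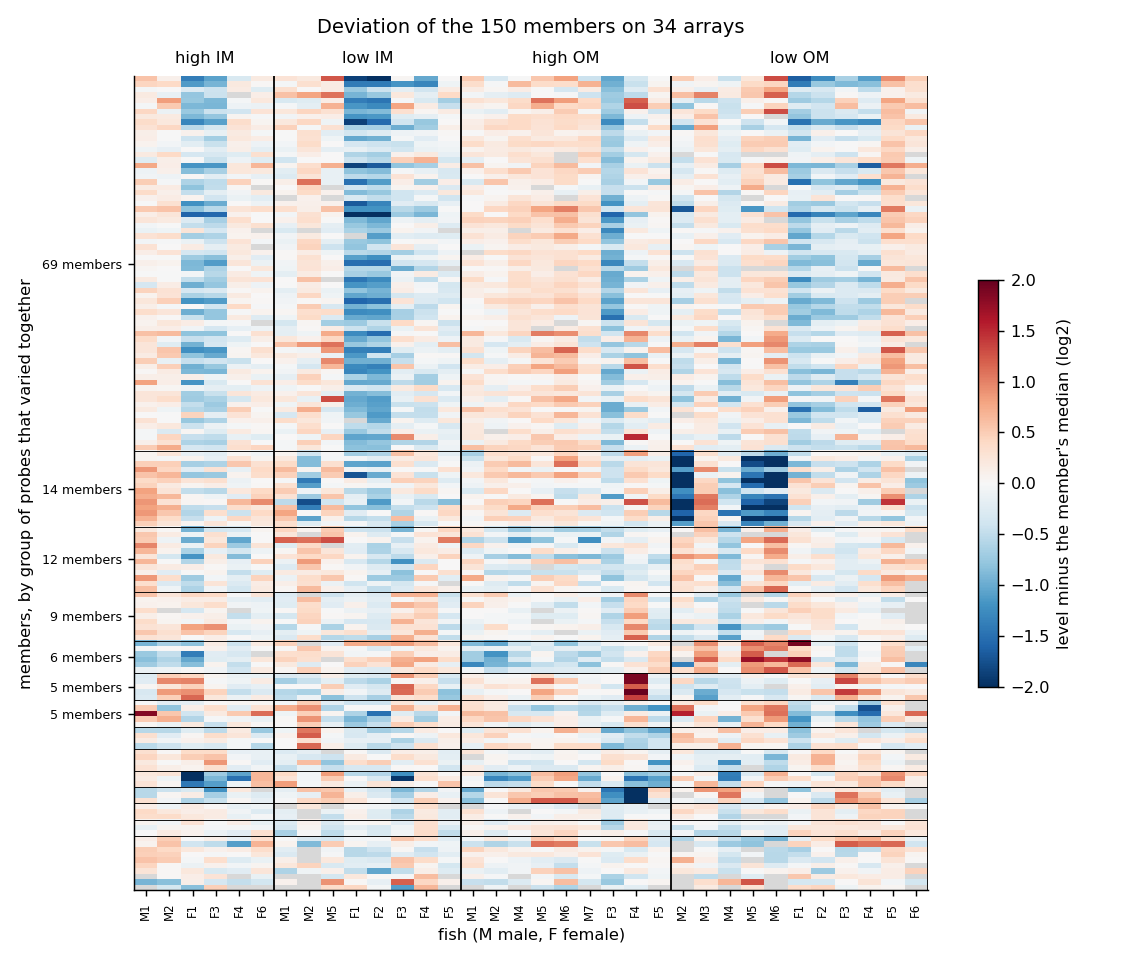
Deviation of each of the 150 members (rows) from its own median on each of 34 arrays (columns, by diet group, males then females), in log2 units and limited to 2 in either direction; grey marks spots left out. Rows are ordered by groups of members that varied together, and the low OM males 2, 5 and 6 and high OM female 4 show as dark columns within single groups of rows.

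The members did not vary independently. Between pairs of members, the correlation of the deviations from the diet group means had a median of 0.24 over 11175 pairs. Average linkage at a correlation of 0.5 gave 20 groups of members, the largest with 69, 14, 12 and 9. The groups were formed from these values and serve as a description only, and they share arrays, slides and scan days. The 69 members of the largest group followed the scan day. Their mean level was 7.10 to 7.88 (median 7.55) on the 22 second-day arrays and 6.42 to 7.39 (median 6.90) on the 12 first-day arrays. Low IM females 1 and 2 had the most members low, with 31 and 36 of the 150 members more than 1 log2 unit below their medians.

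The group of 14 members behaved differently. Its mean level was 5.35 or less on 3 arrays, those of low OM males 2, 5 and 6, at 4.59, 5.35 and 4.87. The other 8 low OM fish had 6.51 to 7.42. In the other diets the range was 6.64 to 7.46 in high IM, 6.13 to 7.21 in low IM and 6.55 to 7.19 in high OM, with the low IM fish at 6.13 being male 2. The 75th percentiles of low OM males 2, 5 and 6 were 863, 386 and 225 intensity units, beside a median of 268 over all arrays, and the members' medians 6.79, 7.03 and 6.94. On them 138, 64 and 103 of the 7597 probes lay more than 3 log2 units below their medians. The fish, its piece of midgut and its array cannot be told apart here.

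The first question was how the mineral level changed the brightest transcripts in fish fed IM. By the study's criteria, a fold change above 1.75 and an unadjusted p below 0.05, 6 of the 150 members differed between high IM and low IM, 2 higher and 4 lower in high IM. Of all 12885 probes, 5.37% passed the same criteria, 1.26% higher and 4.11% lower. After Benjamini-Hochberg adjustment over all probes in limma no member passed, against 0.380% of all probes, and 16 members (10.7%) had an unadjusted p below 0.05, against 13.9% of all probes. With the slide as a block 2 members met the criteria, 1 higher and 1 lower, against 4.61% of all probes, 1% higher and 3.61% lower. The median difference of the members was 0.11 log2 units, against -0.07 over all probes tested. Above 0 were 104 of the 150 members and 5593 of the 12885 probes. The members varied together, so these are not 104 separate rises. The typical 95% interval of a member reached 0.48 units to either side. The directions of the calls changed with the authors' processed values. There 6 members were higher and 0 lower by the criteria, against 577 and 149 of all probes. After adjustment 1 was higher and 0 lower, against 153 and 11 of all probes. The members' median was 0.39 with those values, against 0.15 over all probes.

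Ssa#S30236642 showed the largest rise in high IM. Its lowest, median and highest level was 6.70, 7.16 and 7.63 in high IM and 4.91, 6.15 and 6.63 in low IM. The groups did not overlap, all 6 high IM fish lying above all 8 low IM fish. The difference was 1.15 ± 0.45 log2 units (SE, 2.22-fold; limma adjusted p = 0.22). Ssa#S18862026 was 5.53, 6.46 and 7.76 in high IM and 4.43, 5.76 and 6.42 in low IM, with a difference of 0.94 ± 0.40 and limma adjusted p = 0.26. It no longer met the criteria without high IM female 6, high IM male 1 or low IM female 2, at a lowest difference of 0.70, nor with the slide (0.68), the scan day (0.78) or the fish number (0.72) as a block.

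The largest falls in high IM were in Ssa#S18892324 and Ssa#GI223646919. Ssa#S18892324 had 5.22, 5.81 and 6.46 in high IM as its lowest, median and highest level, and 6.55, 6.67 and 7.04 in the 7 low IM fish with a usable spot. Again the groups did not overlap. The difference was -0.94 ± 0.31 log2 units (limma adjusted p = 0.14). The spot of Ssa#S18892324 left out, of low IM male 5, carried an outlier flag and read 6.37, below the highest high IM fish. Ssa#GI223646919 was 5.01, 5.40 and 6.10 in high IM and 5.70, 6.55 and 6.77 in low IM, differing by -0.90 ± 0.30 (limma adjusted p = 0.15). For Ssa#GI223646919, 4 of the 6 high IM fish were below all low IM fish, and without high IM male 1 its difference was -0.79 and no longer met the criteria. Both falls missed the criteria on the second scan day alone and with the authors' processed values, and that of Ssa#GI223646919 also with the slide as a block, at -0.77.

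In fish fed OM, 9 of the 150 members met the criteria, 7 higher and 2 lower in high OM, against 6.96% of all probes tested, of which 5.00% were higher and 1.96% lower. After adjustment 1 member passed, Ssa#S18892324, against 0.885% of all probes. Its level was 5.27, 5.93 and 6.71 (lowest, median, highest) in high OM and 5.81, 6.84 and 8.03 in 9 low OM fish. The groups overlapped, with 4 of the 9 high OM fish below all low OM fish. Ssa#S18892324 fell by 1.05 ± 0.26 log2 units in high OM (SE, 2.07-fold; limma adjusted p = 0.048). The adjusted p was 0.024 to 0.17 under 49 alternatives and was above the threshold without high OM female 4 or low OM male 2, 5 or 6, among others. With the outlier-flagged spots of low OM female 6 (5.54) and male 2 (6.02) kept, the difference was -0.84 and the adjusted p 0.094. Ssa#GI223646919, which correlated with it, was 4.89, 5.60 and 6.09 in high OM and 5.54, 6.28 and 7.85 in low OM. It differed by -0.96 ± 0.25 with limma adjusted p = 0.056, and no longer met the criteria when the flagged spots were kept, at -0.71, or without low OM female 1, at -0.78.

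All 7 members that were higher in high OM belonged to the group of 14 that was low in low OM males 2, 5 and 6. The largest difference was that of Ssa#S48410629. Its level was 6.51, 6.83 and 7.06 (lowest, median, highest) in high OM and 2.94, 6.02 and 7.04 in low OM. Low OM males 2, 5 and 6 had 3.59, 4.50 and 2.94, and the next low OM fish 5.79. Of the 11 low OM fish, 8 were below all high OM fish. The difference was 1.19 ± 0.37 log2 units (SE; limma adjusted p = 0.087). Ssa#GRASP209152815 had 6.90, 7.70 and 8.55 in high OM and 4.29, 6.99 and 7.83 in low OM, a difference of 1.18 ± 0.37 (limma adjusted p = 0.087). Without low OM male 2, male 5 or male 6, 6 members met the criteria in each case, 4 higher and 2 lower. The shares of all probes in these fits are not given here. Fewer cells of a type and less RNA per cell cannot be told apart in such tissue samples.

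**Figure D4:**
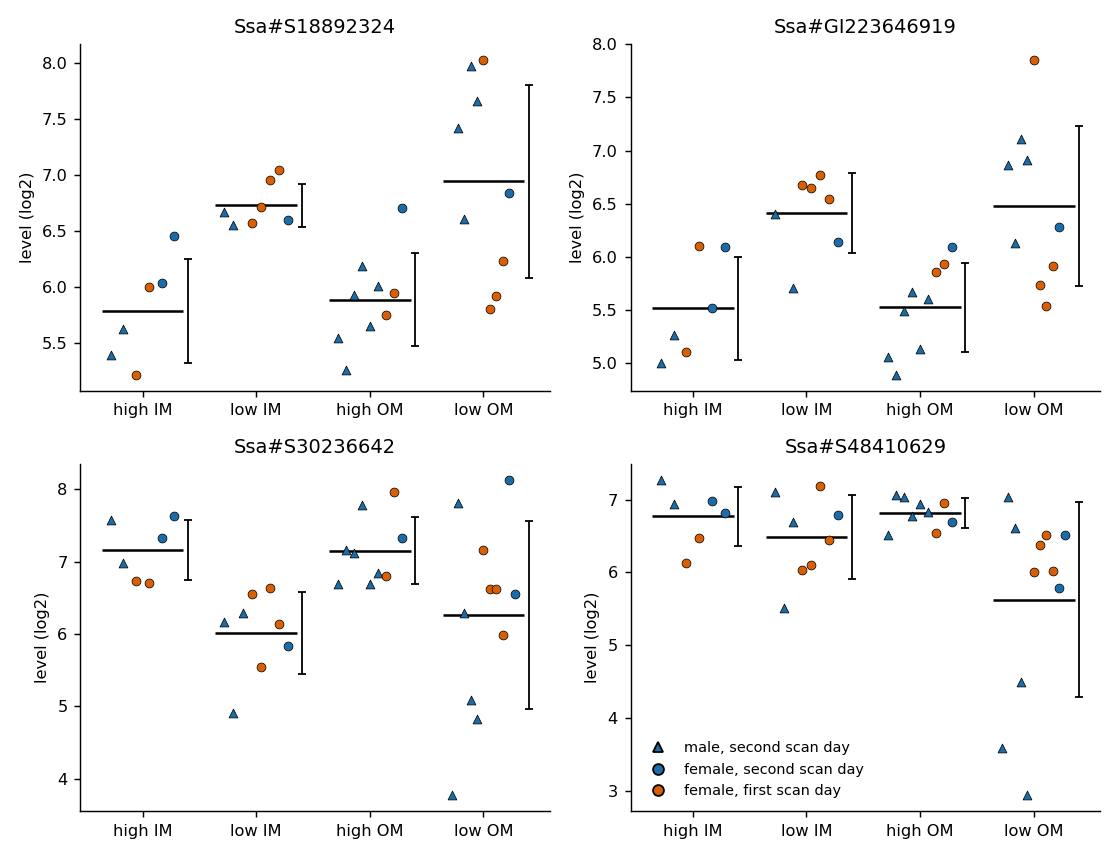
Level (log2 relative to the array's 75th percentile) of 4 members in each fish by diet group, with males as triangles, females as circles, first-day arrays in orange and second-day arrays in blue, and group means with SD in black. Ssa#S18892324 and Ssa#GI223646919 are lower, and Ssa#S30236642 higher, in the high groups of both sources. The low OM group of Ssa#S48410629 includes 3 males between 2.94 and 4.50. Ssa#S30236642 belongs to the same group of members that varied together, and its lowest fish is low OM male 2 at 3.77.

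Over both sources together, the high groups differed from the low groups by the criteria in 3 members, 1 higher and 2 lower, against 4.12% of all probes tested, 1.81% higher and 2.31% lower. After adjustment 10 members passed, 3 higher and 7 lower, or 10 of 150 against 8.46% of all probes. The members' share was thus near that of the whole array. The directions changed with the authors' processed values. After adjustment 18 members were higher and 2 lower there, against 1369 and 125 of all probes. By the criteria 5 were higher and 0 lower, against 455 and 94 of all probes. In the main fit, the 3 members that met the criteria also met them within IM and within OM, which are parts of the same data. Ssa#S30236642 was 1.02 ± 0.29 log2 units higher in the high groups (SE, limma adjusted p = 0.025), with 6.69, 7.12 and 7.97 over 15 high fish and 3.77, 6.28 and 8.13 over 19 low fish. Ssa#S30236642 belongs to the group of 14 members. Its lowest fish was low OM male 2, without which the difference was 0.90. Ssa#S35670630, the member of rank 148, was higher by 0.40 ± 0.11 (1.32-fold, limma adjusted p = 0.022). It was 5.96, 6.16 and 6.38 in high IM against 5.32, 5.67 and 5.90 in low IM, with no overlap, and 5.57, 5.95 and 6.32 in high OM against 5.21, 5.71 and 6.30 in low OM. The call of Ssa#S35670630 was lost on the second scan day alone (0.31), with the slide (0.30) or the fish number (0.39) as a block and after normexp background correction (0.39), at adjusted p of 0.088 to 0.15.

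Ssa#S18892324 fell by 1.00 ± 0.20 log2 units over both sources (SE, 1.99-fold; limma adjusted p = 0.0035), with 5.22, 5.93 and 6.71 in 15 high fish and 5.81, 6.70 and 8.03 in 16 low fish. Ssa#GI223646919 fell by 0.93 ± 0.20 (1.90-fold; limma adjusted p = 0.0044), with 4.89, 5.52 and 6.10 in high fish and 5.54, 6.47 and 7.85 in low fish. Both met the criteria or the adjusted threshold under each of the 48 alternatives run, in which the adjusted p of Ssa#S18892324 lay between 0.0015 and 0.036 and that of Ssa#GI223646919 between 0.0020 and 0.077. On the second scan day alone the differences were -1.06 and -0.92 with adjusted p of 0.026 and 0.030. The other 5 members lower after adjustment fell by 0.53 to 0.76.

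The next question was the mineral source. Between IM and OM over both levels, no member met the criteria, against 3.15% of all probes (0.272% higher and 2.88% lower in IM), and no member or other probe passed after adjustment in limma. At an unadjusted p below 0.05 there were 6 members, against 9.45% of all probes. The differences, IM minus OM, ran between -0.49 and 0.51 log2 units with a median of -0.09. The typical 95% interval (normal approximation) reached 0.31 units to either side. A source difference below that size could thus not be told from 0 for a typical member, while the limit was smaller for steadier members and larger for others. The smallest p belonged to Ssa#S35579391, the fourth brightest member. It had 7.44, 8.65 and 9.45 (lowest, median, highest) in 14 IM fish and 8.26, 9.03 and 10.06 in 20 OM fish, with a difference of -0.49 ± 0.20 (limma adjusted p = 0.52), and did not pass.

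Within the high level, no member met the criteria for IM against OM, while 7.01% of all probes did, 0.132% higher and 6.88% lower in IM. Within the low level 1 member met them, against 1.89% of all probes and 1.55% higher in IM. That member was Ssa#S48410629, at 5.51, 6.57 and 7.19 in low IM and 2.94, 6.02 and 7.04 in low OM, a difference of 0.86 ± 0.38 (limma adjusted p = 0.99). It is the member that was low in low OM males 2, 5 and 6. For the difference between the sources in the response to the level, 0 members met the criteria, against 2.45% of all probes, 2.28% of them lower. Only 2 members had an unadjusted p below 0.05 there, against 3.39% of all probes, and none passed after adjustment. The smallest p was that of Ssa#S35530095, with a difference between the responses, IM minus OM, of 0.41 ± 0.20 log2 units (limma adjusted p = 0.92).

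Males and females were compared over all diets. By the criteria 5 members differed, all higher in males, against 5.55% of all probes, 4.00% higher and 1.55% lower. After adjustment 21 members were higher and none lower in males, against 4.90% of all probes, 3.73% higher and 1.17% lower. That number moved with single fish, being 5 without high OM female 3 and 36 without low OM female 5. The shares of all probes in those 2 fits are not given here. The members as a whole were shifted towards males, with a median difference of 0.21 log2 units against -0.01 over all probes tested. Above 0 were 112 of 150 members and 6315 of the 12885 probes. With arrays scaled to the median of the probes well above background on all arrays, the members' median was 0.23. There 27 members were higher and 0 lower after adjustment, against 569 and 133 of all probes. The shift changed with other processing, but quantile normalization cannot bear on it. That method gives all arrays the same set of values, and 124 to 141 of the members are among each array's own 150 brightest. A shift shared by them is thus largely removed whatever its origin. After quantile normalization the median was -0.01 and the adjusted calls were 9 higher and 13 lower in males, against 3.72% higher and 1.50% lower of all probes, whereas after normexp background correction the median was 0.42 with 57 higher and none lower, against 2.65% and 1.68% of all probes, beside a shift of all probes by -0.26.

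The scan day moved with sex, since all first-day fish were female. Among the 22 second-day fish, no member met the criteria or passed after adjustment, and 1 had an unadjusted p below 0.05. Of all probes 0.629% met the criteria there, none passed after adjustment in limma and 1.33% had an unadjusted p below 0.05, so the rest of the array had few calls as well. The median difference of the members was -0.01 there, and 72 of 150 lay above 0. The 21 members called in the pooled comparison had pooled differences of 0.43 to 1.04 and second-day differences of -0.10 to 0.49 (median 0.02), with 13 of 21 above 0. With the scan day as a block in all 34 fish there were again no calls by either rule, with 2 members at an unadjusted p below 0.05, against 1.41% of all probes. The typical 95% interval then reached 0.35 units to either side. Sex differences below that size could not be told from 0 for a typical member once the days were separated.

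Ssa#GRASP221219747 had the largest adjusted call, 1.04 ± 0.23 log2 units higher in males (SE; limma adjusted p = 0.016). Its level was 7.12, 7.70 and 8.00 (lowest, median, highest) in 16 males and 5.32, 6.44 and 7.93 in 18 females. The females split by scan day, with 7.34, 7.50 and 7.93 in the 6 of the second day and 5.32, 5.97 and 6.70 in the 12 of the first. Those ranges did not overlap, and the second-day females lay inside the range of the males. Within the second day the difference between males and females was 0.02 ± 0.14. The larger difference of Ssa#GRASP209737623, 1.44 ± 0.67 (limma adjusted p = 0.19), was 0.51 without high OM female 4 and then did not pass.

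**Figure D5:**
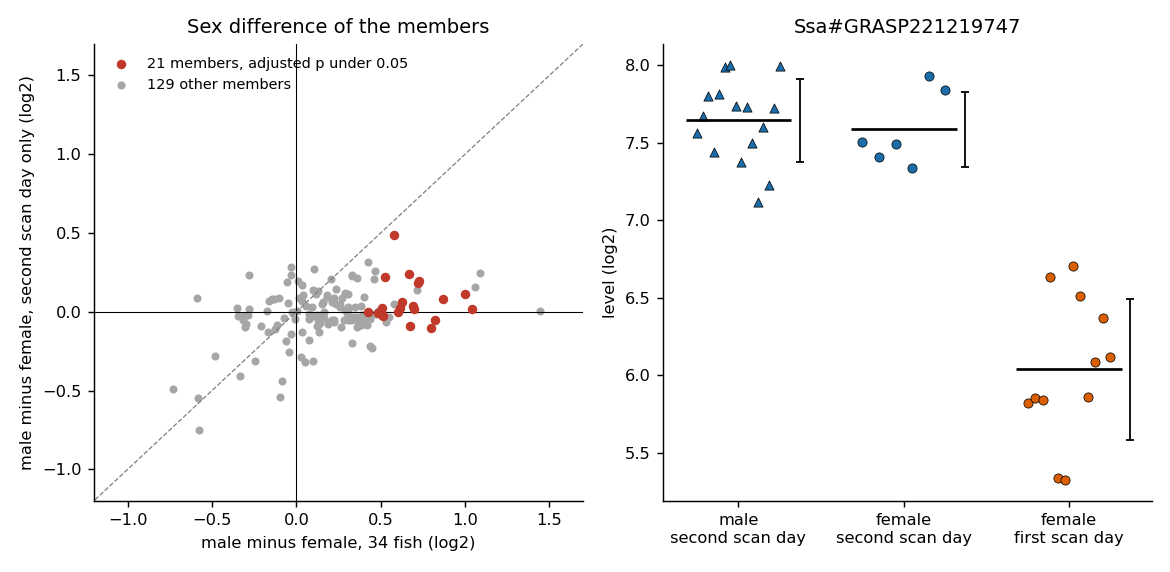
Left: difference between males and females (log2) for each of the 150 members over 34 fish (x axis) against that among the 22 second-day fish (y axis), with the 21 members of adjusted p below 0.05 in red and equality dashed. Right: level of Ssa#GRASP221219747 in each fish by sex and scan day with means and SD. The red points lie between 0.43 and 1.04 on the x axis but between -0.10 and 0.49 on the y axis.

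The scan days were also compared among the females alone, with the diet as a term, a comparison added after the values had been seen. On the second day 20 members met the criteria, 19 higher and 1 lower, against 11.6% of all probes, 9.41% higher and 2.23% lower. After adjustment 39 differed, 38 higher and 1 lower, against 10.8% of all probes. The median difference of the members was 0.31 log2 units, against 0.08 over all probes tested. Of the 21 members called for sex, 17 were among these 39. Both comparisons use the same first-day females, so this overlap is in part built in. It is given as a description only. The largest differences were 1.56 ± 0.22 in Ssa#GRASP221219747 (limma adjusted p = 7.6e-04) and 1.39 ± 0.27 in Ssa#GRASP209732397 (limma adjusted p = 0.0052), and in the other direction -0.97 ± 0.31 in Ssa#KSS5117 (limma adjusted p = 0.056) and -0.67 ± 0.20 in Ssa#S35492043 (limma adjusted p = 0.049). The days share no slide, and what separates them beside the date of the scan is not recorded in the labels.

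The response to the mineral level in OM was also examined by sex. Among OM males, 21 members met the criteria between high and low OM, 10 higher and 11 lower, against 17.3% of all probes, 8.20% higher and 9.08% lower, and 25 passed after adjustment, 14 higher and 11 lower, against 10.8% of all probes. Of the 14 higher after adjustment, 10 belonged to the group that was low in low OM males 2, 5 and 6. Ssa#CL16Contig2 had 6.29, 6.97 and 7.53 (lowest, median, highest) in 6 high OM males and 2.98, 4.66 and 6.93 in 5 low OM males, a difference of 2.04 ± 0.47 (limma adjusted p = 0.0069). Ssa#GRASP209734469 was higher by 1.99 ± 0.44 (limma adjusted p = 0.0055). Low OM males 3 and 4 had 6.81 and 6.93 for Ssa#CL16Contig2, inside the range of the high OM males. Ssa#S18892324 fell by 1.65 ± 0.34 in high OM males (limma adjusted p = 0.0037), with 5.27 to 6.19 in 6 high OM males and 6.61 to 7.97 in 4 low OM males. These ranges did not overlap, but the outlier-flagged spot of the fifth, low OM male 2, read 6.02, inside the range of the high OM males. Ssa#GI223646919 fell by 1.44 ± 0.32 (limma adjusted p = 0.0064), also with 4 low OM males. Its outlier-flagged spot of low OM male 2 was left out and read 5.20, below all low OM spots in use.

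Among OM females, 5 members met the criteria, all lower in high OM, against 22.0% of all probes and 3.66% lower, and 4 passed after adjustment, all lower, against 12.7% of all probes and 142 of the 12885 lower. The largest falls were those of Ssa#S35496705, by 3.90 ± 1.07 log2 units (limma adjusted p = 0.015), and Ssa#GRASP209737623, by 3.80 ± 1.26 (limma adjusted p = 0.046). Both probes were far lower on the array of high OM female 4 than on any other. So was Ssa#S18891260, which fell by 3.28 ± 0.98 (limma adjusted p = 0.026). The remaining adjusted call was Ssa#S35585421, which fell by 0.95 ± 0.32 (limma adjusted p = 0.0495). Estimates in OM females without that array are not given here. Ssa#S35496705 was -2.34, 6.61 and 7.45 in the 3 high OM females and 7.03 to 8.61 in the 6 low OM females. Ssa#S18892324 was 5.76, 5.95 and 6.71 in high OM females and 5.81 to 8.03 in 5 low OM females with a usable spot, an estimate of -0.43 ± 0.38 that did not pass.

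The difference between the responses, females minus males, met the criteria for 22 members, 6 higher and 16 lower, against 28.9% of all probes. After adjustment 6 members passed, all lower, against 15.9% of all probes, 12.8% higher and 3.09% lower. Higher members were 6 of 150 by the criteria, against 21.2% of all probes, and lower members 16 of 150, against 7.71%. Most of these 16 belonged to the group that was low in low OM males 2, 5 and 6, among them Ssa#CL16Contig2 and Ssa#GRASP209734469. Ssa#S35496705 and Ssa#S18891260, far lower on the array of high OM female 4 than on any other, were also among the 16. The median difference was -0.27 over the members and 0.13 over all probes tested. Scaling to the median of the probes well above background on all arrays kept these directions, with 6 higher and 17 lower by the criteria. Of all probes 2720 were higher and 1005 lower there. After adjustment 0 members were higher and 7 lower. The directions turned under other kinds of processing. With the authors' processed values 10 members were higher and 5 lower by the criteria, against 2078 and 693 of all probes. After adjustment 1 was higher and 0 lower with those values, against 544 and 131 of all probes. By the criteria 10 were higher and 7 lower after quantile normalization (14.3% and 17.1% of all probes). After normexp 11 were higher and 6 lower (2.79% and 5.29% of all probes). Quantile normalization largely removes a shift shared by the brightest probes here too. The adjusted calls became 5 higher and 1 lower after quantile normalization, against 9.26% and 7.77% of all probes. They were 0 after normexp in limma, where 0 of all probes passed. There 18 members had an unadjusted p below 0.05, against 10.1% of all probes. Ssa#S35496705 had the lowest difference, -4.59 ± 1.41 (limma adjusted p = 0.027), which was -1.46 without high OM female 4 and -0.72 on the second scan day alone, where it did not pass. Ssa#S18891260, at -3.26 ± 1.36 (limma adjusted p = 0.10), was -0.67 without that array and 0.48 on the second scan day alone. Without low OM male 5 its criteria call was lost too. The largest positive differences were 1.22 ± 0.51 in Ssa#S18892324 and 1.20 ± 0.54 in Ssa#S18892497 (limma adjusted p = 0.10 and 0.12). Ssa#S18892324 missed the criteria without high OM female 5, low OM female 2, low OM female 3 or low OM male 5. Ssa#S18892497 missed them without high OM female 4, female 5 or male 1 or low OM female 3, female 6, male 3, male 5 or male 6. Both missed them with the slide as a block, at 0.96 and 1.15. The second scan day held 1 high OM and 2 low OM females, so that this comparison could barely be made within it.

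Among IM fish by sex, 3 members met the criteria in females, against 6.52% of all probes (1.93% higher and 4.59% lower), and 8 in males, against 4.70% (1.19% higher and 3.52% lower), with 2 high IM males and 3 low IM males in that comparison. None passed after adjustment in limma in either sex, at 10 and 13 members with an unadjusted p below 0.05, or 6.67% and 8.67%, against 12.2% and 5.95% of all probes. Ssa#S18892324 differed by -0.85 ± 0.35 in IM females and -1.10 ± 0.52 in IM males, and Ssa#S30236642 by 0.96 ± 0.52 and 1.49 ± 0.71. In IM males Ssa#STIR37516 had the largest fall, -1.38 ± 0.42 (limma adjusted p = 0.74). The estimates of Ssa#S18892324 and Ssa#S30236642 had the same sign in both sexes and both sources. Both were named for their differences by level in these same fish, so this agreement is in part built in. It is given as a description only.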

How the data were processed

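Midgut RNA of 34 fish was labelled with Cy3 and hybridised to 1-colour Agilent arrays. The deposited scanner files, made by the authors with Agilent Feature Extraction 12.0.1.1, hold an intensity and flags per spot. A deposited value table also holds intensity values, which matched median signal minus background times a factor per array within 1 unit or 1% for 99.3% of values. Its column medians were 31 to 115 and its scaling is not stated, and it served as an alternative. The labels name the RNeasy kit for RNA extraction, the study's methods PureLink.

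Log2 processed signal was scaled to the array's 75th percentile. Probes well above background on at least 6 arrays (12885) were tested. Spots with an outlier flag (149 of 5100 among the members) were left out of tests and spreads but not of the ranking. That was 2.92% of the members' spots against 0.428% of the spots of all probes, and it touched 62 of the 150 members. What this unequal share does to the comparisons of members with all probes was not tested. All 150 members passed the filter. Tests were made with limma 3.58.1 in R 4.3.3 on all 4 diet groups, with Benjamini-Hochberg adjustment over all probes. The fit was checked on simulated data. Text names the 5 brightest members, the 3 of highest and of lowest spread and, per comparison, up to 2 rises and 2 falls that passed (otherwise the smallest p). Other probes and single fish were singled out after their values were seen. Members, lists and tests were chosen with earlier results of these data known. The number of arrays limits the precision. Alternatives covered background correction, scaling, filter, slide, scan day, fish number, moderation and each array left out.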

Additional observations from a re-analysis of the deposited data

Results flagged for a closer look

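For the 29 named values (27 members, the members' median and their share of signal), 96 sets of 4 to 10 fish were screened for a fish far from the rest of its group, of which chance would mark about 1 in 20. Of these, 16 were marked. Low OM, with 11 fish, was too large for the screen unless a spot had been left out. It was thus not screened for Ssa#S48410629, Ssa#CL16Contig2, Ssa#GRASP209734469, Ssa#S30236642 or the members' median, among others. The absence of marks for low OM males 2, 5 and 6 in those values is therefore no result. High OM female 4 was marked for Ssa#GRASP209737623 at -3.60 (next fish 5.67), Ssa#S35496705 at -2.34 (next 6.61) and Ssa#S18891260 at -1.43 (next 5.57), and at the other end for Ssa#GRASP209154277 at 10.1, Ssa#TC111085 at 10.28 and Ssa#KSS5117 at 10.24, against 9.18, 9.30 and 8.68 for the next fish. The 3 low members had been named for the spread that this same array gave them, so their marks followed from the choice. Most other members were also named by their values here, so the rate of 1 in 20 is no measure for the 16. High OM female 3 was marked as lowest for the members' median at 6.40, their share of signal at 43.66%, Ssa#GRASP209731203 at 6.09, Ssa#GRASP209154919 at 5.81 and Ssa#GRASP209734469 at 6.40. Low IM male 2 was marked as lowest for Ssa#CL16Contig2 at 5.87 and Ssa#GRASP209734469 at 5.49, and as highest for Ssa#GRASP209731203 at 6.82. Ssa#S35492043 was marked in high IM female 3 at 7.37 and in high OM female 5 at 5.29.

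The response to the mineral level in OM differed between females and males for 6 members after adjustment in limma. Without both high OM female 4 and low OM male 6, the number was 2, with the share of all probes in that fit not given here. All 6 of the main fit were lower in females minus males. Scaling to the median of the probes well above background on all arrays gave 0 higher and 7 lower, against 1638 and 398 of all probes. The calls were 5 higher and 1 lower after quantile normalization, against 9.26% and 7.77% of all probes. After normexp no member and no other probe passed in limma. With the authors' processed values 1 member was higher and 0 lower, against 544 and 131 of all probes.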

How the results depend on the processing

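Numbers of members meeting the criteria were 6 for the level in IM, 9 for the level in OM, 3 for the level over both sources, 0 for the source, 0 for the level by source interaction, 5 for sex and 22 for the sex difference of the OM response. With adjusted p in their place the numbers were 0, 1, 10, 0, 0, 21 and 6. For the level in IM there were 2 with the slide as a block (4.61% of all probes, with all probes in brackets below as well). With the authors' values there were again 6, but 6 higher and 0 lower (577 higher and 149 lower of 14841 probes). For the level over both sources there were 5 with the authors' values, 5 higher and 0 lower. Of 14841 probes 455 were higher and 94 lower there, more than in the main fit. By adjusted p 18 members were higher and 2 lower with those values. On the second scan day alone there were 10 (6.94%). The interaction gave 1 with sex as a covariate, 1 when the days were blocked (2.95%) and 2 on the second day alone (1.58%). Sex gave 17 after normexp (1.01%), 3 after quantile normalization (5.91%) and 2 with the slide as a block (8.41%). It gave 26 with the authors' values (694 higher and 181 lower of 14841 probes). It gave 0 when the days were blocked (0.799%) or on the second day alone (0.629%). The cause of these changes was not tested. Shares of all probes are not given for fits with 1 or 2 fish left out, with sex as a covariate or with the replicate number as a block. Changes there may not be particular to the members.

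Leaving out each fish in turn gave 4 to 7 members for IM, 6 to 11 for OM, 3 to 7 for both sources, 0 to 1 for the interaction, 3 to 7 for sex, 13 to 27 for the OM sex difference and 0 throughout for the source. The lowest were without low OM female 1 for sex (3) and without low OM male 5 for the OM sex difference (13), and the highest for both sources was without high IM female 3 (7), with 6 without high IM female 1 or low OM male 3 and 5 without high OM female 3, low IM male 1 or 5, low OM female 5 or low OM male 4. The interaction gave 1 without high IM female 1, low IM male 2 or low OM female 1, 3 or 4. By adjusted p the numbers ran between 0 and 6 for OM, 8 and 13 for both sources, 5 and 36 for sex and 1 and 13 for the OM sex difference, the lowest for the OM sex difference without high OM female 3. With each fish left out, the median SD of the members was 0.42 to 0.44 and 148 to 150 members stayed in the list. Under the other alternatives the median SD was 0.32 to 0.56.

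Fish with the same number in the labels did not vary together (correlations of -0.30 to 0.35), so the number does not pair them. With the replicate number as a block, 3 members met the criteria for IM, 8 for OM, 4 for both sources and 1 for the interaction. It was 0 for the source and 30 for the OM sex difference, and for sex this fit could not be made. The shares of all probes in this fit are not given here, so these counts may not be particular to the members.

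Of 966 values of named members under alternatives, 903 were tallied as unchanged, 61 lost the call and 2 reversed. Reversed were Ssa#GRASP221219747 for sex with the slide as a block (-0.039) and Ssa#S18891260 for the OM sex difference on the second day (0.48). The 903 include Ssa#S35579391 for the source and Ssa#S35530095 for the interaction, which passed neither rule to begin with. They also include Ssa#S18892324 in OM where its adjusted p was above the threshold. Many alternatives leave out 1 fish and share all others, so the tally is no measure of robustness. Keeping outlier-flagged spots, leaving out both arrays that stand apart, and comparing scan days among females were chosen after seeing the data.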
